A study of Mus musculus with 6 samples.

Results

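The genes described here are 10 early response genes of mouse: Fos, Fosb, Jun, Junb and Jund of the AP-1 family, Atf3, the zinc finger genes Egr1, Egr2 and Egr3, and the orphan nuclear receptor gene Nr4a1. They were chosen by name, with earlier results of these data known. Their probe sets were taken where the platform annotation gives that symbol alone, which found 14 probe sets for the 10 genes. Of these, 12 probe sets were bright enough to test, so that each of the 10 genes was measured, among 10302 genes tested in all. Where a gene has several, the brightest by its mean stands for the gene, and the others are given beside it.

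The study placed cells labelled as T-cell progenitors on 6 Affymetrix arrays, 3 from Gata3+/- and 3 from Gata3-/- mouse embryonic stem cells. GATA3 is a zinc finger transcription factor of the T lineage, and the comparison addresses cells with a single functional copy of its gene against cells lacking one. Both genotypes were differentiated on OP9 and OP9-DL1 stromal cells with IL-7 and Flt3L, then sorted by flow cytometry. The sources used here give neither the sort markers, nor the stem cell clones, nor which part of Gata3 was disrupted. The labels call the arrays of a genotype biological replicates without saying whether they came from separate cultures, so p-values measure the spread between these arrays, part of which may be technical.

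Early response genes are transcribed within minutes of a signal from preformed factors, without new protein synthesis, and their messages decay fast. Growth factors, cytokines, antigen receptors and cell stress reach them through the ERK, JNK and p38 kinases, through serum response factor with its ternary complex partners, and through CREB. FOS and JUN proteins pair through leucine zippers into AP-1, EGR proteins bind GC-rich sites, and NR4A receptors act without a known ligand. In developing T cells, EGR proteins and NR4A1 are induced by signalling of the pre-T-cell receptor and the T-cell receptor, and in macrophages the same genes respond to adhesion and inflammatory stimuli.

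The sequence just before the transcription start carries part of this regulation. RefSeq promoter sequences of assembly GRCm38.p6 were matched for 8 of the 10 genes, all but Egr1 and Egr3. The 250 bases before each listed start were searched on both strands. The motifs were TGACG, the core of the CREB and ATF site, the full palindrome TGACGTCA, the AP-1 site TGANTCA, the EGR site GCGNGGGCG, and the CArG box of serum response factor. TGACG also lies within TGACGTCA. The promoters of 4 genes are shown here as examples. They are Fos as the founding member, Fosb for its difference between genotypes, Nr4a1 for its separation of genotypes, and Egr2 for its CArG box. Fosb and Nr4a1 were thus picked with their values in view. A link between motifs and differences was not tested. Motifs stand in capitals, in either orientation, and each run ends 1 base before the start.
Fos, plus strand, chr12:85473640-85473889: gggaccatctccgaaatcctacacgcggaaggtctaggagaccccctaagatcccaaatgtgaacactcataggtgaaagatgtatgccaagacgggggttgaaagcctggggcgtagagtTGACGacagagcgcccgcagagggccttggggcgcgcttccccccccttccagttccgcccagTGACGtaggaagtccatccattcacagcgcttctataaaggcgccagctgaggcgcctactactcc
Fosb, minus strand, chr7:19310046-19310295: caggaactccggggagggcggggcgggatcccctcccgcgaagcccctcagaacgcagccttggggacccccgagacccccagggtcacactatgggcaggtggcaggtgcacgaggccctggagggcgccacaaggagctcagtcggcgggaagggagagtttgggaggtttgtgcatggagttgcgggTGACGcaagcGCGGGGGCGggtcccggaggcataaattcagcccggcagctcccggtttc
Nr4a1, plus strand, chr15:101266596-101266845: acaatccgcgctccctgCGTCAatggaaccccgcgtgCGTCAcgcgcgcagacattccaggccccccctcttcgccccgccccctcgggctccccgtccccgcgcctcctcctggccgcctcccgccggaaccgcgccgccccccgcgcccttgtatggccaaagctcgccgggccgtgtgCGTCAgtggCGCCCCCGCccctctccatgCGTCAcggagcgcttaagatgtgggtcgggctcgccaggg
Egr2, plus strand, chr10:67537619-67537868: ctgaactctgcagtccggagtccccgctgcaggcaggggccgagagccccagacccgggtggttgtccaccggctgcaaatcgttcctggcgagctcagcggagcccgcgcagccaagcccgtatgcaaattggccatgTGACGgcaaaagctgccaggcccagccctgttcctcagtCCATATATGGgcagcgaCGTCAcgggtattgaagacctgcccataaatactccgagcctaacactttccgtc

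TGACG or its complement CGTCA was present before at least 1 start of 6 of the 8 genes, against 19.8% of 27025 genes with a promoter in the table. The 6 were Fos, Fosb, Junb, Egr2, Atf3 and Nr4a1, and these letters were not in the windows of Jun and Jund. The Nr4a1 window held 4 of them, at 233, 213, 69 and 40 bases before the start, and the Fos window held 2, at 129 and 66 bases. The CArG box was present in Egr2 alone, 72 bases before the start shown, against 1.62% of genes. Egr2 has 5 listed starts, which gives it more windows than the other genes. The EGR site was present in Fosb, 50 bases before its start, and in Nr4a1, 60 bases before its start, against 5.33% of genes. The palindrome TGACGTCA (1.77% of genes) and the AP-1 site TGANTCA (7.82% of genes) were in none of the 8 genes' windows. A match describes letters in this window and is not a measured site. Sites further than 250 bases before the start, and variants of these letters, were not searched. A motif not found here may therefore still be present in the gene's regulatory sequence.

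None of the 10 genes passed the test between genotypes. With limma, 0 of 10 had an adjusted p under 0.05 and 1 of 10 had an unadjusted p under 0.05. Over all genes tested, 5.27% were called (2.86% higher and 2.41% lower in Gata3-/- arrays), and 25.8% had an unadjusted p under 0.05. All 10 differences were nevertheless above 0, from 0.11 for Egr2 to 1.30 for Fosb on the log2 scale, with a median of 0.47. Over all genes the share above 0 was 46.7% and the median -0.02. The 10 genes share the same 6 arrays and vary together across them, as given below, so their signs are not separate observations.

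Values are log2 GC-RMA intensities throughout, and each mean ± SD covers the 3 arrays of a genotype (n = 3). Replicate numbers recur in both genotypes and were not taken to pair the arrays. Differences are Gata3-/- minus Gata3+/-, with standard error (SE) and adjusted p from limma over all probe sets tested. Intensities of different probe sets are not on a common scale, so levels are compared between arrays for 1 gene and not between genes. Each array measured a sorted population in bulk, in which fewer cells of a type and less RNA per cell cannot be told apart.

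**Figure D1:**
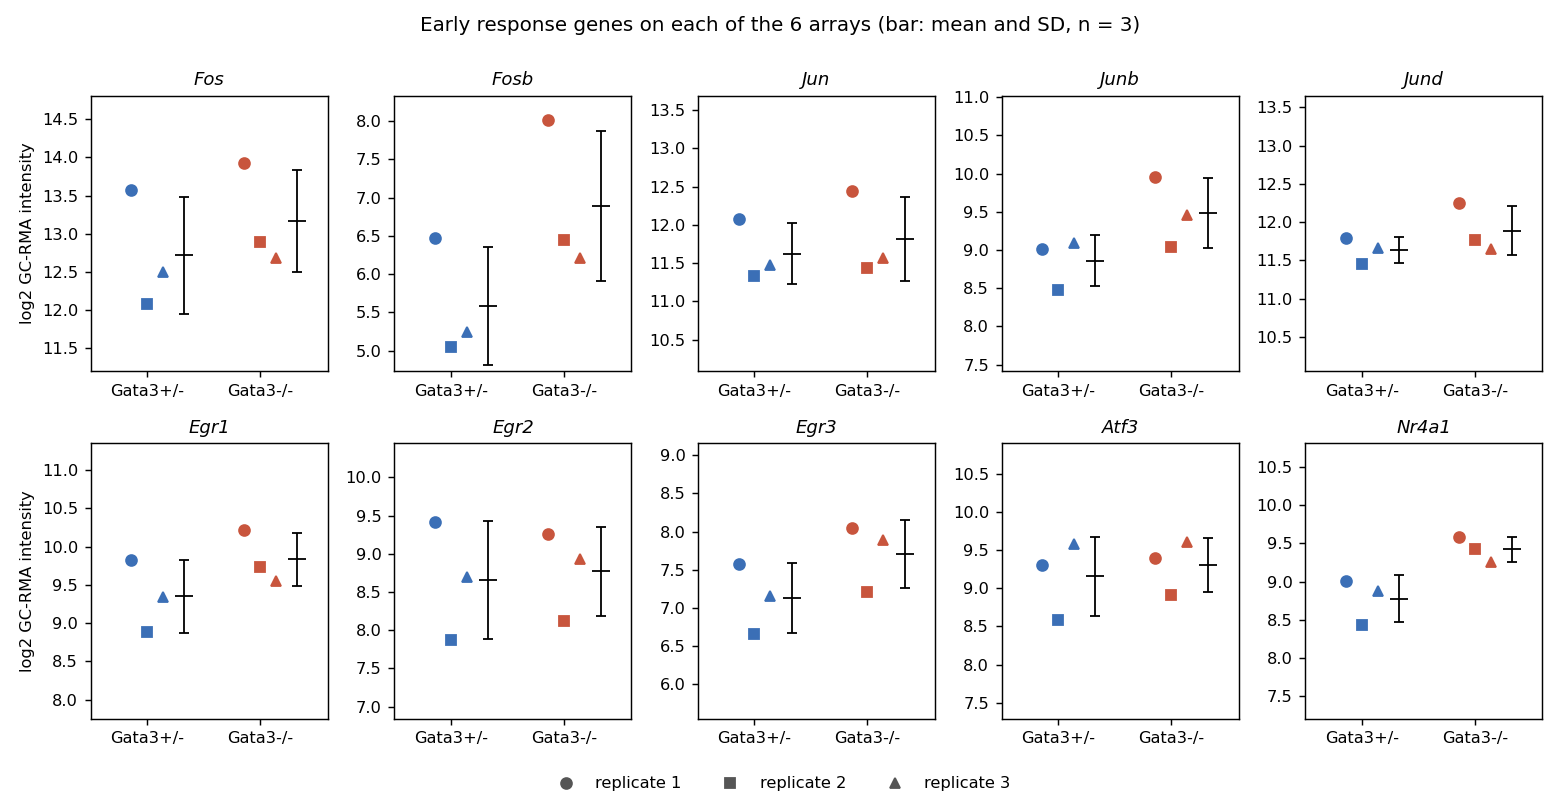
Log2 GC-RMA intensity (y axis) of the 10 genes on each array, by genotype (x axis), with the symbol giving the replicate number and the black bar the mean and SD over 3 arrays. Every panel spans the same number of log2 units. The lowest of the 6 values of every gene is Gata3+/- replicate 2, and the genotypes stand apart for Nr4a1 alone.

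The FOS proteins supply the partner that cannot bind DNA alone. Fos, which encodes c-FOS, read 13.57, 12.09 and 12.50 on Gata3+/- replicates 1, 2 and 3, and 13.92, 12.89 and 12.68 on Gata3-/- replicates 1, 2 and 3. Replicate 1 was the highest in both genotypes and the ranges overlapped. The means were 12.72 ± 0.76 and 13.16 ± 0.66, a difference of 0.45 (SE 0.49, adjusted p = 0.645 with limma). Its 95% interval ran from -0.77 to 1.66, or 0.586-fold to 3.17-fold.

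Fosb encodes a close relative of c-FOS that is also induced early. It read 6.47, 5.04 and 5.25 on Gata3+/- arrays and 8.02, 6.44 and 6.21 on Gata3-/- arrays. The highest Gata3+/- value exceeded the lower 2 of the Gata3-/- values, so the genotypes overlapped slightly. Its difference of 1.30 (SE 0.61), or 2.47-fold, had an interval from -0.20 to 2.80 and an adjusted p = 0.270 with limma. Fosb was also the most variable of the 10, with a range of 1.81 among the Gata3-/- arrays.

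JUN proteins bind DNA as partners of FOS or with each other. Jun, which encodes c-JUN, read 12.07, 11.33 and 11.48 on Gata3+/- arrays and 12.45, 11.43 and 11.56 on Gata3-/- arrays. Replicate 1 stood above the others in both genotypes, and the other 4 values lay close together. The difference was 0.19 (SE 0.33, adjusted p = 0.783 with limma). The other probe set of Jun gave a difference of the opposite sign, -0.13 (SE 0.32), and neither passed.

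Junb encodes a JUN protein that restrains c-JUN in some settings. It read 9.01, 8.48 and 9.10 on Gata3+/- arrays and 9.96, 9.04 and 9.46 on Gata3-/- arrays. Gata3-/- replicates 1 and 3 lay above the whole Gata3+/- range and Gata3-/- replicate 2 lay inside it. The difference was 0.62 (SE 0.28), with an interval from -0.07 to 1.32 and an adjusted p = 0.256 with limma. Jund, the JUN gene whose expression depends least on stimulation, read 11.79, 11.45 and 11.66 on Gata3+/- arrays and 12.25, 11.76 and 11.65 on Gata3-/- arrays. Its genotypes overlapped, and its difference of 0.25 (SE 0.19, adjusted p = 0.481 with limma) was small. A further Jund probe set stayed between 2.09 and 2.26, under the minimum for testing.

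ATF3 is a stress-induced member of the ATF and CREB family that pairs with JUN proteins. Atf3 read 9.30, 8.58 and 9.58 on Gata3+/- arrays and 9.39, 8.91 and 9.61 on Gata3-/- arrays. The 2 genotypes covered nearly the same range, with replicate 3 highest and replicate 2 lowest in each. The difference was 0.15 (SE 0.31, adjusted p = 0.817 with limma), with an interval from -0.61 to 0.91.

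Among the EGR genes, Egr1 read 9.83, 8.88 and 9.34 on Gata3+/- arrays and 10.22, 9.74 and 9.55 on Gata3-/- arrays. EGR1 is the family member most widely induced by growth factors. Its lowest Gata3-/- value lay above 2 of the Gata3+/- values but below the third. The difference was 0.49 (SE 0.29, adjusted p = 0.377 with limma).

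Egr2, which in lymphocytes restrains activation and is induced with Egr3, read 9.42, 7.87 and 8.69 on Gata3+/- arrays and 9.26, 8.13 and 8.93 on Gata3-/- arrays. The highest of its 6 values was a Gata3+/- array, the only such case among the 10 genes. The difference was 0.11 (SE 0.47, adjusted p = 0.917 with limma), and the other Egr2 probe set gave 0.35 (SE 0.49). Both probe sets were lowest on replicate 2 of each genotype.

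Egr3 read 7.57, 6.66 and 7.15 on Gata3+/- arrays and 8.04, 7.21 and 7.88 on Gata3-/- arrays. Gata3-/- replicates 1 and 3 lay above all Gata3+/- values. The difference was 0.58 (SE 0.31, adjusted p = 0.332 with limma). The other Egr3 probe set read 1.90 to 1.91 on all 6 arrays, under the minimum for testing.

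Nr4a1 was the only one of the 10 whose genotypes did not overlap. It encodes NUR77, an orphan receptor used as a readout of antigen receptor signalling and needed for patrolling monocytes. It read 9.01, 8.43 and 8.88 on Gata3+/- arrays and 9.59, 9.42 and 9.26 on Gata3-/- arrays. The means were 8.77 ± 0.31 and 9.42 ± 0.17. The difference was 0.65 (SE 0.18), or 1.57-fold, with an interval from 0.21 to 1.09, and its adjusted p = 0.101 with limma missed the threshold. The exact permutation p was 0.1 (two-sided), the smallest that 3 against 3 arrays allow. Over all genes tested, 16.9% had every Gata3-/- array above every Gata3+/- array and 16.7% the reverse, so 1 of 10 is not more than the background.

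The 10 genes varied more between arrays of 1 genotype than most genes did. Their pooled within-genotype SD had a median of 0.45, against 0.15 over all genes tested, and each gene's SD exceeded that of 75.3% (Nr4a1) to 97.2% (Fosb) of genes. For 5 of the 10, Fos, Jun, Jund, Egr2 and Atf3, that SD was larger than the difference between genotypes. The range among 3 arrays ran from 0.34 (Jund) to 1.54 (Egr2) in Gata3+/- and from 0.33 (Nr4a1) to 1.81 (Fosb) in Gata3-/-.

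The same arrays were high or low for most of the 10. Gata3+/- replicate 1 was the highest of its genotype for 8 genes, the exceptions being Junb and Atf3, and Gata3-/- replicate 1 for 9 genes, the exception being Atf3. Gata3+/- replicate 2 was the lowest of all 6 arrays for 10 of 10. In Gata3-/-, the lowest array was replicate 2 for Jun, Junb, Egr2, Egr3 and Atf3 and replicate 3 for Fos, Fosb, Jund, Egr1 and Nr4a1. With each gene centred on its mean over the 6 arrays, the 10 genes averaged 0.22, -0.71 and -0.23 on Gata3+/- replicates 1, 2 and 3. On Gata3-/- replicates 1, 2 and 3 they averaged 0.72, -0.09 and 0.09. Gata3+/- replicate 2 and Gata3-/- replicate 1 thus marked the low and the high end. The median difference of the 10 genes dropped from 0.47 to 0.21 when Gata3+/- replicate 2 was left out and to 0.20 when Gata3-/- replicate 1 was left out. Leaving out Gata3+/- replicate 1 gave 0.71.

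Single differences moved mostly with the same arrays. Without Gata3-/- replicate 1, the difference of Fosb was 0.74, of Junb 0.39, of Fos 0.07 and of Jund 0.07, and those of Jun (-0.13) and Egr2 (-0.13) turned. Without Gata3+/- replicate 2, the difference of Egr3 was 0.35, of Egr1 0.25 and of Fos 0.13, and those of Egr2 (-0.28) and Atf3 (-0.14) turned. Atf3 also turned without Gata3-/- replicate 3 (-0.0038). Over the 6 fits that left out 1 array, the difference of Nr4a1 ran from 0.48 to 0.77, and limma called 0 of the 10 genes in each. Those fits called only 0 to 4 of all genes tested, so they could hardly call a member.

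**Figure D2:**
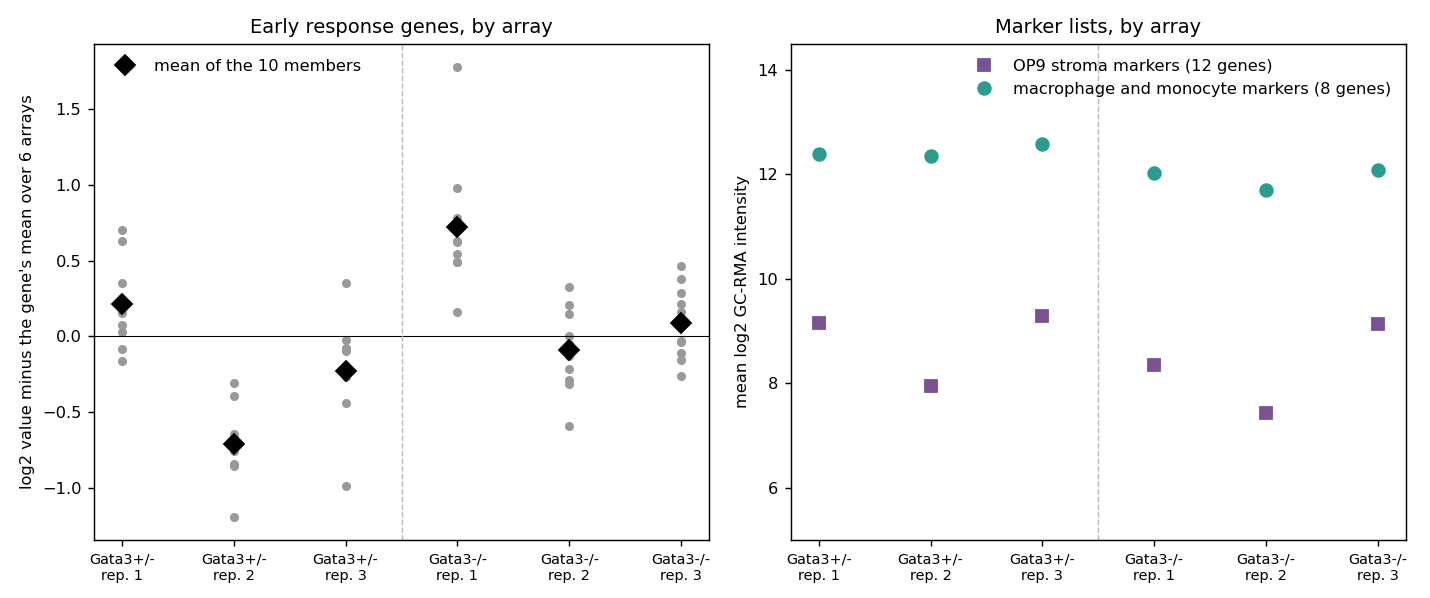
Left, the log2 value of each of the 10 genes minus its own mean over the 6 arrays (grey points) and the mean of the 10 (black diamonds, y axis), by array (x axis). Right, the mean log2 intensity of 12 OP9 stroma markers and 8 macrophage and monocyte markers on the same arrays. The members' mean is lowest at -0.71 on Gata3+/- replicate 2 and highest at 0.72 on Gata3-/- replicate 1. The mean of the stroma markers is lowest on replicate 2 of both genotypes.

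Marker genes show which cells the arrays could hold, and several marker lists differed between arrays too. Of 12 T-lineage markers named on the array, 10 lay under the minimum on all arrays, among them Cd3e, Ptcra, Bcl11b and Rag1. Most of this list was thus not detected. The 2 measured, Cd5 and Cd7, averaged 6.45 to 6.94 in Gata3+/- and 7.36 to 8.60 in Gata3-/- arrays. Neither was called (adjusted p = 0.0764 and 0.118 with limma), and 16.9% of all genes separated in this direction. All 8 named macrophage and monocyte markers were measured, with averages of 12.36 to 12.58 in Gata3+/- and 11.69 to 12.09 in Gata3-/- arrays. Of them 1, the Fc receptor gene Fcgr1, was called lower (2.41% of all genes). Not every marker of this list was lower. Cd68 had every Gata3-/- array above every Gata3+/- array, with a difference of 0.53 (adjusted p = 0.0541 with limma). For Lyz2 the genotypes overlapped, with a difference of -0.11. The 12 measured OP9 stroma markers, of 15 named, averaged 9.16, 7.95 and 9.30 on Gata3+/- replicates 1, 2 and 3 and 8.35, 7.43 and 9.14 on Gata3-/- replicates, with 0 called by limma. Thy1, Lum and Dcn stayed under the minimum. The mean of the stroma list was lowest on replicate 2 of each genotype, where Jun, Junb, Egr2, Egr3 and Atf3 were also lowest. Not every stroma marker followed that mean. Cxcl12 was instead highest on replicate 2 of each genotype. Postn was lowest on Gata3+/- replicate 1, and Pdgfrb on Gata3-/- replicate 1. On Gata3-/- replicate 1, highest for 8 of the 10 genes, the stroma list stood at 8.35.

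Dendritic markers (6 measured of 8) averaged 8.99 to 9.34 in Gata3+/- and 8.73 to 9.20 in Gata3-/- arrays. These averages join opposite differences. Zbtb46 (1.89) was called higher, and Siglech (-4.50) and Irf8 (-0.67) were called lower. Over all genes tested, 2.86% were called higher and 2.41% lower. Siglech lay under the minimum on every Gata3-/- array. B-lineage markers (2 of 5) averaged at least 7.29 in Gata3+/- and at most 7.19 in Gata3-/- arrays, with Pax5, Cd79a and Vpreb1 under the minimum. For each of the 2 measured, Ebf1 and Cd79b, the genotypes overlapped. Granulocyte and mast cell markers (3 of 8) averaged 8.22 to 9.18 and 7.65 to 9.78, with Elane, Ngp, Camp and Fcer1a under it. Erythroid and megakaryocyte markers (4 of 5) averaged 10.17 to 10.56 and 10.09 to 10.73, with Hba-a1 under it. No marker of these last 3 lists was called. The part of other cell types in the early response values was not tested. Gata3 itself averaged 5.88 ± 0.50 in Gata3+/- and 5.93 ± 0.48 in Gata3-/- arrays, a difference of 0.05 (adjusted p = 0.954 with limma), so its probe set does not check the genotype labels.

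Genes whose profile over the 6 arrays lay nearest to that of Fos were sought among the other 10301 genes, by the root mean square difference of centred log2 values. Dusp1, the phosphatase that switches off p38 and JNK, was the nearest at 0.21, followed by Egr1 at 0.26 and Vldlr, a lipoprotein receptor gene, at 0.28. Vldlr read 4.43 to 5.54, on most arrays near the minimum for testing. Jun ranked 4th, Egr2 17th, Egr3 20th, Jund 31st, Junb 44th, Nr4a1 48th and Fosb 101st, while Atf3 ranked 2070th. Dusp1 read 13.04, 11.90 and 11.88 on Gata3+/- arrays and 13.34, 12.73 and 12.56 on Gata3-/- arrays, again highest on replicate 1 of both.

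For Egr1 the nearest genes were Zfp36, which encodes the message-destabilizing protein tristetraprolin, at 0.16, Hspbap1 at 0.17 and Dusp18 at 0.18. Nr4a1 ranked 5th and Fosb 8748th by that measure, which weighs the size of a gene's swings as well as their order. Hspbap1 and Dusp18 lie near the minimum for testing, at 3.35 to 4.53 and 3.72 to 4.76. The nearness is a description over 6 arrays.

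Among relatives of the 10 genes, Nr4a2 and Nr4a3 had differences above the members' range. Of 7 EGR and NR4A relatives and corepressors, 6 were measured and 0 were called by limma, although 3 had an unadjusted p under 0.05 (25.8% of all genes) and every Gata3-/- array above every Gata3+/- array (16.9% of all genes). Nr4a3 and Nr4a2, which encode the receptors NOR1 and NURR1, and the histone deacetylase gene Hdac7 made up those 3. The median difference of the 6 was 0.49. Egr4 stayed between 1.36 and 1.37, far under the minimum.

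Nr4a3 read 6.87, 4.21 and 7.62 on Gata3+/- arrays and 9.96, 9.17 and 9.96 on Gata3-/- arrays. Every Gata3-/- array lay above every Gata3+/- array, and Gata3+/- replicate 2 lay near the minimum. The difference of 3.46 (SE 0.89), had an interval from 1.25 to 5.67 and an adjusted p = 0.0880 with limma. Without Gata3+/- replicate 2 the difference was 2.45.

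Nr4a2 read 9.25, 6.93 and 9.18 on Gata3+/- arrays and 11.23, 10.42 and 11.38 on Gata3-/- arrays. Here too the genotypes stood apart, with Gata3+/- replicate 2 low. The difference was 2.56 (SE 0.69, adjusted p = 0.0951 with limma), and its 3 other tested probe sets gave 3.80, 2.76 and 1.31. All 4 tested probe sets of Nr4a2 thus lay in 1 direction without passing. Against these, the difference of Nr4a1 was 0.65; whether the 3 receptors differ from each other was not tested.

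Hdac7, whose product represses Nr4a1 in thymocytes, had a difference of 0.94 (SE 0.21, adjusted p = 0.0661 with limma). The EGR corepressors Nab1 and Nab2 had differences of 0.05 and -0.21, and their genotypes overlapped.

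**Figure D3:**
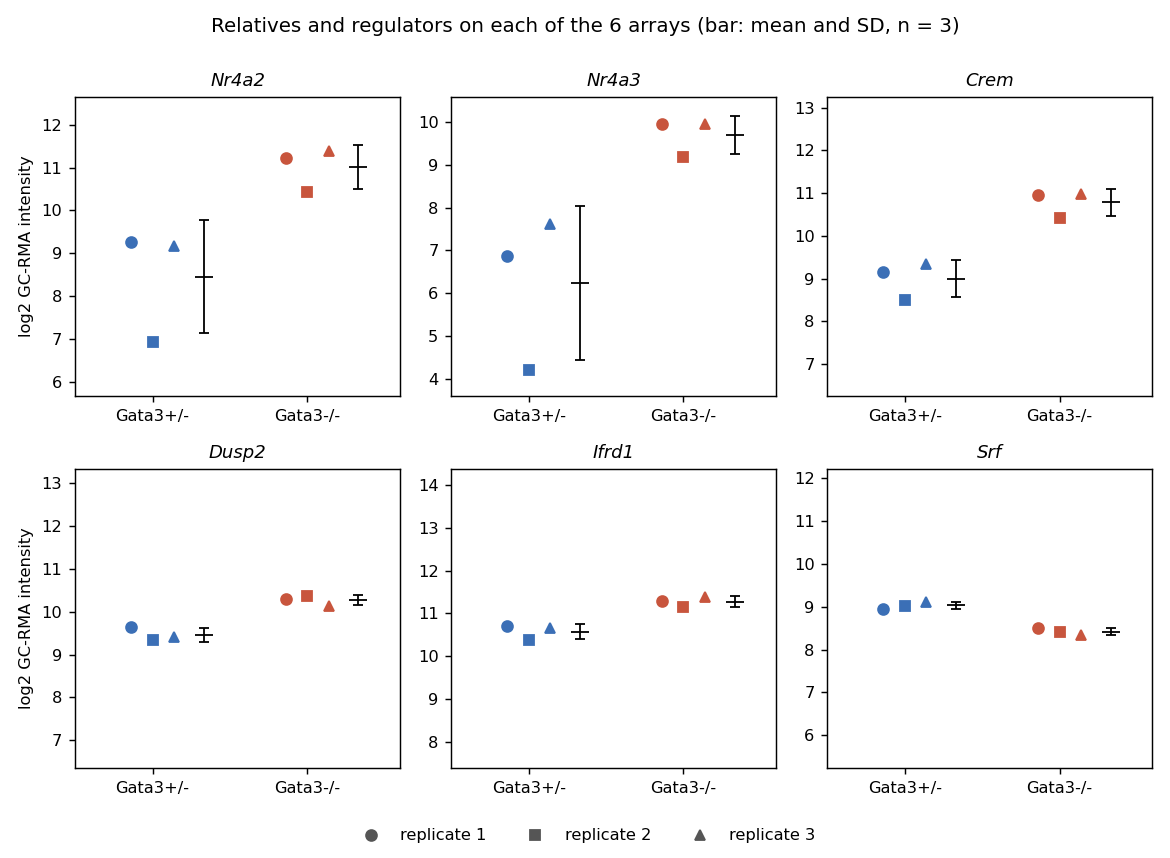
Log2 GC-RMA intensity (y axis) of Nr4a2, Nr4a3, Crem, Dusp2, Ifrd1 and Srf on each array, by genotype (x axis), drawn as for the 10 genes and with equal spans. Nr4a3 is lowest at 4.21 on Gata3+/- replicate 2, and in each panel the 3 Gata3-/- arrays lie on 1 side of the 3 Gata3+/- arrays.

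Among other AP-1 and bZIP partners, 15 of 17 genes named on the array were measured, 1 was called higher and 0 lower by limma, and the median difference was -0.04. An unadjusted p under 0.05 (25.8% of all genes) was found for 5. Of these, Crem was higher and 4 were lower in Gata3-/- arrays. Each was without overlap of the genotypes, as were 16.9% (higher) and 16.7% (lower) of all genes. The 4 were Batf3 (-0.78), Maf (-0.48), Atf4 (-0.25) and Creb1 (-0.24), named with their values in view, and none of them passed after adjustment. The called gene was Crem, which encodes cAMP-responsive activators and repressors of the CREB family. Crem read 9.15, 8.51 and 9.35 on Gata3+/- arrays and 10.95, 10.42 and 10.99 on Gata3-/- arrays. It rose by 1.78 (SE 0.27, adjusted p = 0.0360 with limma), or 3.44-fold, with an interval from 1.12 to 2.45. Its other tested probe set gave 2.10 (SE 0.44) with an adjusted p = 0.0589, and 2 further ones lay under the minimum.

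The FOS relatives did not show such a separation. Fosl2, which encodes FRA2, read 8.59, 7.52 and 9.06 on Gata3+/- arrays and 9.09, 8.28 and 9.38 on Gata3-/- arrays, a difference of 0.53 (SE 0.47, adjusted p = 0.563 with limma). Fosl1, which encodes FRA1, reached the minimum on 2 of 3 Gata3+/- arrays and 1 of 3 Gata3-/- arrays. Its fitted difference of -0.81 (SE 1.07) therefore rests on values near the floor.

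Of 38 other immediate early genes named on the array, 36 were measured, and 1 was called higher and 0 lower, with 12 at an unadjusted p under 0.05 (25.8% of all genes). The list's median difference was 0.26, and 12 genes had all Gata3-/- arrays above all Gata3+/- arrays, while 1 had them all below (16.9% and 16.7% of all genes). The called gene was Ifrd1, which encodes a transcriptional coregulator induced by growth factors. Ifrd1 read 10.70, 10.38 and 10.65 on Gata3+/- arrays and 11.29, 11.15 and 11.39 on Gata3-/- arrays, and rose by 0.70 (SE 0.12, adjusted p = 0.0424 with limma).

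Larger differences in that list did not pass. Rgs1, a regulator of G protein signalling in lymphocytes, differed by 2.29 (SE 0.57, adjusted p = 0.0831 with limma). Gadd45b, which activates the p38 and JNK cascade, differed by 2.08 (SE 0.47, adjusted p = 0.0690 with limma). Rgs1 and Gadd45b were picked with their values in view. Both were lowest on Gata3+/- replicate 2, at 8.54 and 7.69, where the early response members were lowest as well.

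Genes that feed back on the kinases upstream were measured through 13 of 15 MAP kinase phosphatases and ERK inhibitors. Of these 1 was called higher and 0 lower, 7 had an unadjusted p under 0.05 (25.8% of all genes), and the median difference was 0.21. The genotypes did not overlap for 4 genes higher (16.9% of all genes) and 2 lower (16.7%) in Gata3-/- arrays. Dusp2, a nuclear phosphatase of ERK and p38 induced in activated lymphocytes and macrophages, read 9.65, 9.33 and 9.42 on Gata3+/- arrays and 10.31, 10.36 and 10.14 on Gata3-/- arrays. It rose by 0.80 (SE 0.11, adjusted p = 0.0349 with limma), or 1.74-fold. Dusp1, the nearest gene to Fos, had a difference of 0.60 (SE 0.38, adjusted p = 0.407 with limma).

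Of the kinases, SRF and its partners, 14 of 17 named genes were measured, 0 were called higher and 1 lower, 7 had an unadjusted p under 0.05 (25.8% of all genes), and the median difference was 0.13. The genotypes did not overlap for 5 genes higher (16.9% of all genes) and 2 lower (16.7%) in Gata3-/- arrays. The called gene was Srf, which encodes serum response factor, the protein that binds the CArG box. Srf read 8.94, 9.03 and 9.12 on Gata3+/- arrays and 8.51, 8.40 and 8.34 on Gata3-/- arrays. It fell by 0.61 (SE 0.09, adjusted p = 0.0344 with limma). The other probe set of Srf did not show this, at 6.34 ± 0.20 and 6.43 ± 0.02 with a difference of 0.09, so the 2 probe sets disagree.

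No heat shock or dissociation stress gene passed the test. Of 13 named on the array 11 were measured, 0 were called by limma and 1 had an unadjusted p under 0.05 (25.8% of all genes). The median difference was -0.08, with 10 of 11 below 0. Among all genes tested, 5493 of 10302 lay below 0 and the median was -0.02. The stress genes share the same arrays, so their signs are not separate observations. In 2 genes, Hspa5 and Hspa8, every Gata3-/- array lay below every Gata3+/- array (16.7% of all genes), and in 0 above. The differences ran from -0.78 for the small heat shock gene Hspb1 (SE 0.53, overlapping genotypes) to 0.20 for Bag3, a pair also picked with their values in view. The chaperone gene Hspa5 of the endoplasmic reticulum had a difference of -0.29 (SE 0.08, adjusted p = 0.0890 with limma) and Hspa8, a constitutive chaperone, of -0.13 (SE 0.07, adjusted p = 0.324 with limma).

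Over these 6 lists 4 of 95 measured genes were called, beside the 5.27% of all genes. None of Crem, Ifrd1, Dusp2 and Srf was called by limma in any of the 6 fits that left out 1 array. There the adjusted p ran from 0.0699 to 0.113 for Crem, 0.0845 to 0.124 for Ifrd1, 0.0784 to 0.108 for Dusp2 and 0.0783 to 0.106 for Srf. Their differences kept their sign in those fits, in which 0 to 4 of all genes were called.

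**Figure D4:**
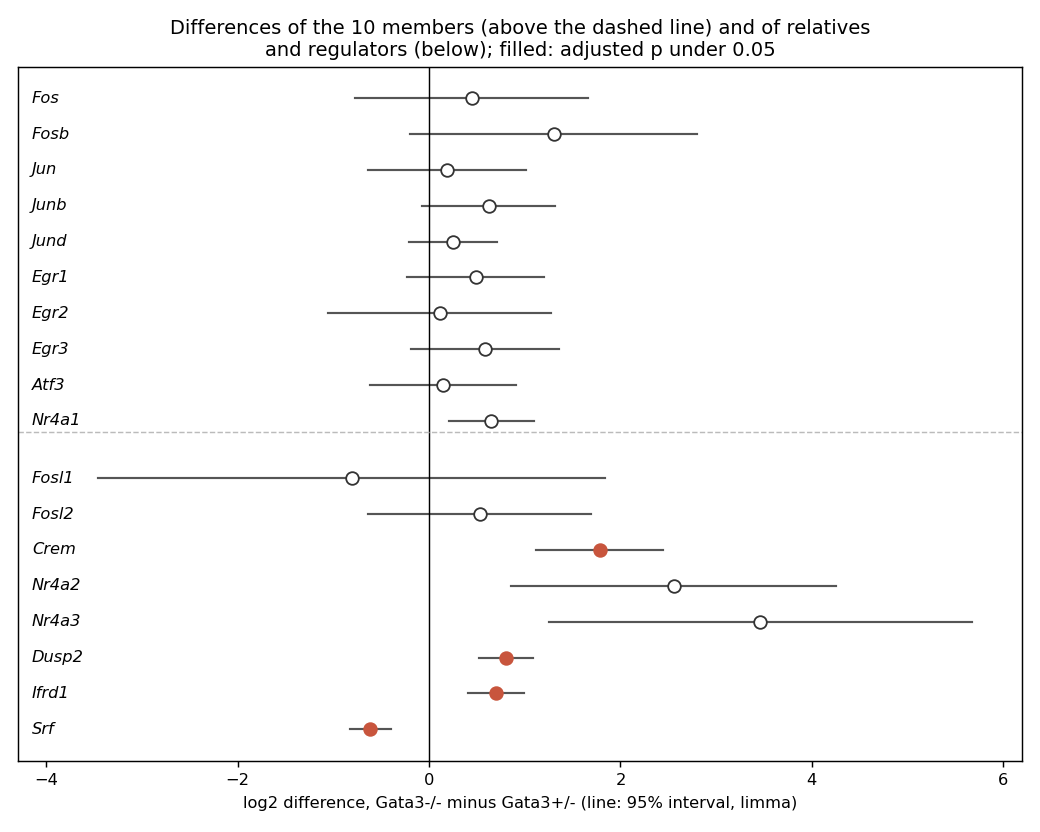
Log2 difference, Gata3-/- minus Gata3+/- (x axis), with its 95% interval from limma (line), for the 10 members above the dashed line and for 8 relatives and regulators below it (rows). All 10 members lie above 0 with open symbols, and Crem, Dusp2, Ifrd1 and Srf are filled for an adjusted p under 0.05.

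**Figure D5:**
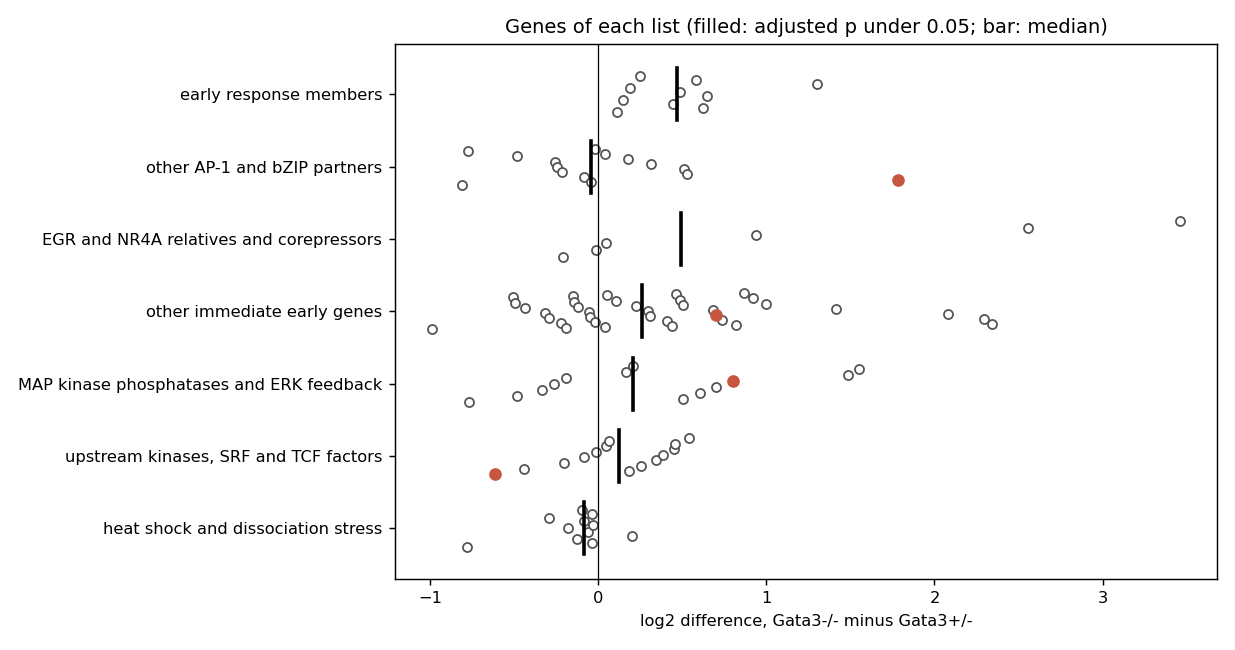
Log2 difference, Gata3-/- minus Gata3+/- (x axis), of each measured gene in the 10 members and the 6 lists (rows), with the vertical bar at the median and filled points for an adjusted p under 0.05. The members' median is 0.47 with 0 filled points, and 4 genes in the other lists are filled.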

How the data were processed

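The 6 arrays, 3 per genotype, were grouped by genotype and replicate number from their titles. The deposited values are linear intensities of 45101 probe sets, made by the authors with GC-RMA per the labels, and the submitters' processing notes name GCOS. The sources used here give no versions, settings or build. After log2 transformation and removal of 64 controls, 20102 probe sets that reached a log2 of 4 (intensity 16) on 3 or more arrays were tested. GC-RMA compresses low values into a floor, so dim differences carry little information, and the number of arrays limits the precision.

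Tests were two-sided, from limma (lmFit, eBayes; version 3.58.1, R 4.3.3), with Benjamini-Hochberg adjustment over all probe sets tested and a threshold of 0.05. The procedure was tested on simulated data drawn with the mean and SD of each probe set. It called 58% of 100 probe sets changed by 1 on the log2 scale and 89% of 100 changed by 2. Of its 152 calls, 5 were false. Smaller changes were not simulated. The platform annotation gave 1 symbol to 34958 probe sets and several to 932, and did not list 9211. Of 34945 probe sets with 1 gene identifier, 34741 were matched in RefSeq. List genes with no probe set of that symbol were not analysed here.

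The members and lists were chosen with earlier results of these data known. The text names the 10 members, the relatives Fosl1, Fosl2, Nr4a2, Nr4a3 and Egr4, Gata3, up to 4 called genes of each list (or else the 2 with the smallest p), and the 3 genes nearest to Fos and Egr1. Other genes are examples. Alternatives were no filter, a minimum of 6, median centring, quantile normalization, array weights, limma-trend with robust eBayes, a block on replicate number, log2 of the value plus 16, averaged probe sets and leaving out each array. Leaving out both arrays numbered 1 or both numbered 2 was added after seeing the data.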

Additional observations from a re-analysis of the deposited data

How the results depend on the processing

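The count of members called was 0 under every alternative run except the replicate block, where 1 (Fosb) was called. The fits that left out arrays called only 0 to 4 of all genes, so a count of 0 members there carries little information. The number of members above 0 was 10 in the reported fit and 8 to 10 over the alternatives. With array weights it was 8, as Jun (-0.0017) and Egr2 (-0.18) turned, Fos was 0.0030 and the members' median 0.21. Leaving out 1 array turned Jun (-0.13 to 0.41), Egr2 (-0.28 to 0.49), Atf3 (-0.14 to 0.36) and Gata3 (-0.21 to 0.30). Without both arrays numbered 1, Gata3 was -0.17 and Fosl1 0.22. The causes were not tested.

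Of probe sets, genes and genes of the 6 lists, 878, 543 and 4 were called. Testing unfiltered probe sets gave 166, 98 and 0, limma-trend with robust eBayes gave 1349, 824 and 8, and array weights gave 2075, 1224 and 13. Without both arrays numbered 1 they were 0, 0 and 0, and without both arrays numbered 2 they were 4, 3 and 0. Leaving out 1 array gave 0 to 9 probe sets, 0 to 4 genes and 0 to 0 genes of the lists with limma, while 2043 to 2484 genes and 25 to 33 genes of the lists stayed under 0.05 before adjustment. Such fits rest on fewer arrays. Averaging the probe sets of a gene moved Srf to -0.26 (adjusted p = 0.122; 0.0201 to 0.273 over its alternatives).

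Adding the replicate block left 498 called probe sets and 298 called genes, 181 of the genes also called without it, and 6 members had an unadjusted p under 0.05. Of the list genes 6 were called, 5 of them other immediate early genes. Fosb then had an adjusted p = 0.0444 (0.0444 to 0.633 over its alternatives), while Dusp2 (0.0532) and Srf (0.0666) missed the threshold. Deviations of same-numbered arrays from their genotype mean correlated by 0.005, 0.69 and 0.43 across probe sets, and Gata3+/- replicate 1 correlated best with Gata3-/- replicate 3 (0.42). The numbers were therefore not taken to pair the arrays.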
